A study of Caenorhabditis elegans with 2 samples.

Results

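HLH-11 peaks that carry the Myc/Max type E-box are described here. They come from ChIP-seq, in which DNA bound by a protein is recovered with an antibody and sequenced, in the nematode Caenorhabditis elegans. A peak was a member if the hexamer CACGTG lay wholly within 50 bp of its summit on build ce11 and CAGCTG, the AP-4 type E-box, did not. Of the 7863 peaks in the authors' thresholded list, 444 (5.65%, 95% exact binomial interval 5.15 to 6.18%) met this rule. A further 326 peaks held only CAGCTG, 15 held both E-boxes and 7078 held neither. The rule used the sequence around the summit; it did not use signal, annotation class or genes.

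The study holds 1 group of 2 biological replicates and compares no conditions. Both were whole L4 larvae of mixed sex from strain OP396, with the genotype unc-119(tm4063) III; wgIs396, collected at 53 h after hatching larvae had been held at L1 by starvation. The wgIs396 insertion encodes HLH-11 fused at the C-terminus to GFP and FLAG, and chromatin sheared to 200 to 800 bp was recovered with an antibody against GFP. All worms carried the transgene and the unc-119 allele, each replicate is a pool of worms, and the labels do not give the promoter or the cells in which the fusion is made, so no peak can be assigned to a cell type. The files list peaks without read counts, so read depth is unknown. Peak signal is a value from the authors' caller whose unit is not given in the labels or files, and it is compared only within 1 list; rank 1 is the strongest peak of the pooled replicates. All intervals given with shares are 95% exact binomial intervals, which cover the counting of peaks, sites or genes only, and differences between sets of peaks were not tested, because peaks of 1 list are not replicates.

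E-boxes are the short sites of basic helix-loop-helix (bHLH) proteins, and the central bases and the bases on either side separate the families. HLH-11 is the worm relative of mammalian AP-4, a family known for CAGCTG. The hexamer CACGTG is the site of Myc, Max, Mondo and TFEB proteins, which govern growth, sugar and fat metabolism and lysosome genes. In the worm these are MML-1 with its partner MXL-2 (Mondo and Mlx), MDL-1 with MXL-1 (Mad and Max), MXL-3, and HLH-30, the TFEB relative that turns on autophagy and lysosome genes during fasting.

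The sites below are picked examples from the 20 strongest members. Those of T04C4.3 and drap-1 share the run GAGACGCAG after the hexamer, and the others shown lack it. Each sequence below is 30 bases of the reference genome on the strand of the nearest protein-coding gene, 5′ to 3′, with the hexamer in capitals.
T04C4.3, rank 22, chrIV:2219622-2219651, minus strand: agagacaacgtcCACGTGcaagagacgcag
drap-1, rank 34, chrV:9731156-9731185, plus strand: gtagtgaaacgaCACGTGgagacgcagaac
F21C10.10, rank 38, chrV:9095792-9095821, plus strand: gatcatgatgttCACGTGttccgacgagac
mans-3, rank 154, chrX:5165166-5165195, plus strand: gcatgcggcctcCACGTGgaccttcctctt

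Several members lay around mdl-1, the worm's Mad-type partner of Max, and 4 of their sites are shown because the gene encodes a protein of the family that CACGTG is named for.
mdl-1 promoter, rank 170, chrX:6742214-6742243, plus strand: tcatgcgaggcgCACGTGcatacacacaca
mdl-1 upstream, rank 2248, chrX:6741071-6741100, plus strand: ttccagaaaaaaCACGTGgtacacaaaaca
mdl-1 downstream, rank 29, chrX:6744025-6744054, plus strand: ccacatgttgatCACGTGtcgccgatcagt
mdl-1 far downstream, rank 848, chrX:6749507-6749536, plus strand: ctcttgcttttgCACGTGcctgtttctcgc

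The first 5 sites that follow lie in promoters of lysosome, lipid and autophagy genes, classes known as TFEB-type targets. They are picked examples: 6 of 72 lysosome, 2 of 45 lipid and 2 of 28 autophagy genes had a member in the promoter. These are 8.33, 4.44 and 7.14%, beside 1.26% of all protein-coding genes. Among genes with any thresholded summit in the promoter, the shares were 14.3, 6.06 and 12.5%, beside 5.91% over all such genes. No list was tested. The last 3 sites, in an intron of or in intergenic sequence nearest to F09A5.3, penr-1 and fkh-9, carry the octamer TCACGTGA. This is the hexamer with T before it and A after it, and the site of atg-13 carries it too.
cpr-1, chrV:11975416-11975445, plus strand: aaggaagggcagCACGTGagcactgagcac
lipl-2, chrV:9791516-9791545, plus strand: acaatacttcgaCACGTGtttcatatataa
lipl-5, chrV:385689-385718, plus strand: acgaaattcaaaCACGTGgtgtgcatattt
fat-4, chrIV:9799844-9799873, plus strand: aacaccccttatCACGTGcatcacatgtga
atg-13, chrIII:8158571-8158600, minus strand: gttctcggccatCACGTGaagcaggcgcac
F09A5.3, chrX:13145350-13145379, plus strand: cgatctctgcatCACGTGaagcggcccgtc
penr-1, chrV:5271641-5271670, plus strand: gcacgttgtgttCACGTGatgtacgtgcaa
fkh-9, chrX:3832251-3832280, minus strand: cacttgttttctCACGTGatcatcattatt

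Members stood high in the signal ranking. Their median signal was 242 (interquartile range 149 to 404, range 89.1 to 1909), beside 181 for all thresholded peaks, 243 for peaks with only CAGCTG and 176 for peaks with neither E-box. The 15 peaks with both had a median of 616. In ranks, the median member stood at 2723, the median AP-4 type peak at 2715.5 and the median peak with neither at 4053.5.

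Of the 444 members, 289 (65.1%, interval 60.5 to 69.5%) fell among the strongest 3931 peaks. By successive blocks of 1965 peaks from the top, the blocks held 38.3, 26.8, 18.9 and 16% of the members. The strongest 10% of the list held 83 members, and the strongest 100 peaks held 13. Both replicates' own rankings gave the same picture. Among each replicate's strongest 7863 peaks, with its own summits, replicate 1 had 427 peaks that met the rule (5.43%) and replicate 2 had 446 (5.67%). For replicate 1 the share was 9.92% in the first 786 of these peaks and 3.81% in the last 787, and for replicate 2 it was 11.3% and 2.80%.

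The share of peaks that met the rule was 10.6% in the strongest of 10 equal blocks of the thresholded list, 7.51% in the next and 6.36% in the one after, and lay between 2.93% and 4.57% in the last 5. Peaks with only CAGCTG made up 9.92% of the strongest block and 2.54 to 3.94% of the last 5. Both kinds of E-box were thus most frequent at the strongest peaks and had nearly equal shares there. Pooled peaks below the authors' threshold still met the rule in 670 of 22137 cases (3.03%, interval 2.80 to 3.26%). Median GC content in the 101 bp window was 43.6% for both members and all peaks, and 47.5% for the AP-4 type peaks. These values include the hexamers that the rule requires. With both hexamers cut out of the windows, the medians were 42.1% for members, 43.6% for all peaks and 46.3% for the AP-4 type peaks.

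**Figure D1:**
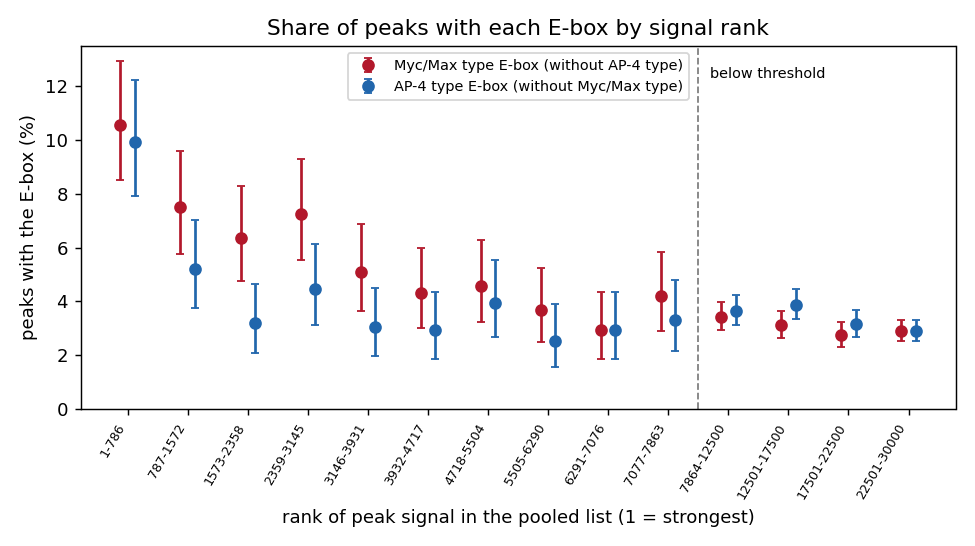
Share of pooled peaks (y axis, percent, with 95% exact binomial intervals) with only the Myc/Max type E-box or only the AP-4 type E-box within 50 bp of the summit, by signal rank from strongest to weakest (x axis). Both shares are highest in the strongest of 10 blocks of the thresholded list, at 10.6% and 9.92%, and low beyond the threshold.

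Over the whole list, the hexamer was most frequent near the summit. Counted over all thresholded peaks in 20 bp bins, CACGTG sites reached 109 in a bin and averaged 106 per bin within 20 bp of the summit, against 30 per bin (21 to 38) beyond 200 bp. CAGCTG averaged 71.5 per bin within 20 bp and 31 (23 to 43) beyond 200 bp. Sites of CACGTG were thus about as frequent as those of CAGCTG far from summits and more frequent near them.

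Among members, whose hexamer the rule places within 50 bp, the centre of the nearest copy was a median of 22.5 bp from the summit, with 106 within 10 bp and 202 within 20 bp; these values describe the spread inside that limit and show no centring. The 444 members hold 468 distinct sites, none shared between members, and 421 of them hold a single copy. The 50 bp limit did not coincide with a step in signal: the 90 peaks with a nearest copy at 41 to 50 bp had a median signal of 244, and the 67 at 51 to 60 bp had 233. Just inside the limit were peaks near sea-2 (signal 577), C06A6.2 (421) and nape-1 (344), and just outside it, at 51 bp, peaks near ppfr-1 (1287), Y62E10A.13 (908) and R04B5.5 (296).

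**Figure D2:**
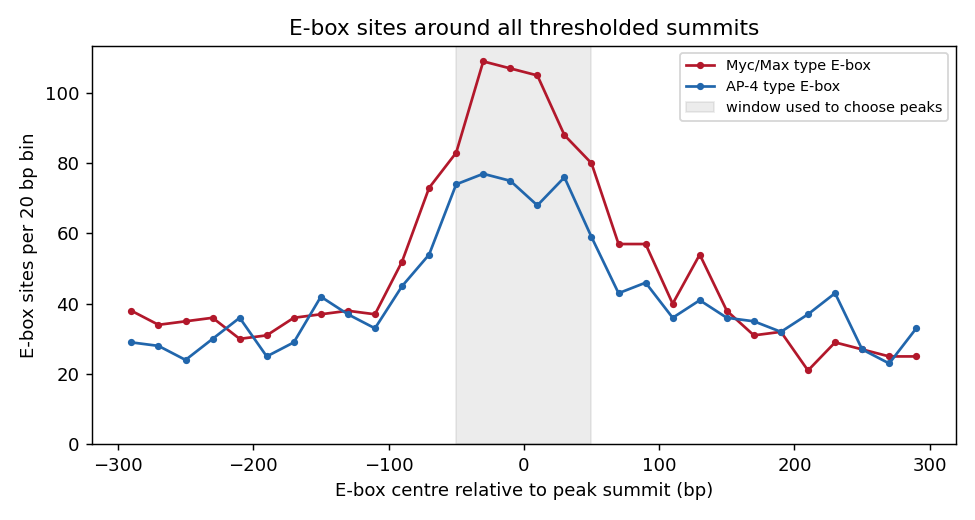
Number of Myc/Max type and AP-4 type E-boxes (y axis, sites per 20 bp bin) by distance from the summit in bp (x axis) over all 7863 thresholded peaks, with the 50 bp window of the rule shaded. Myc/Max type sites rise from a mean of 30 per bin beyond 200 bp to 106 within 20 bp, and AP-4 type sites from 31 to 71.5.

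Most members were found again in the separate replicates, with median signals of 109 in replicate 1 (441 members with a summit within 100 bp) and 134 in replicate 2 (440), beside 84.3 and 101 for all peaks. A peak counted as found when a replicate had a summit within 100 bp among its own strongest 7863 peaks. This held in both replicates for 384 members (86.5%, interval 83.0 to 89.5%), beside 78.6% of all thresholded peaks; 4 members were found in neither. Since support follows signal, the comparison was also made by block of 1965 ranks. From the top block down, 100, 99.2, 90.5 and 28.2% of members were found in both (20 of 71 in the last), and the shares over all peaks were 99.1, 97.1, 87.8 and 30.4%. At equal rank the members therefore had shares near those of other peaks.

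Replicate summits lay close to the pooled ones. Of the 441 members with a replicate 1 summit anywhere in that list within 100 bp, 378 (85.7%) had CACGTG within 50 bp of that summit, and of 440 in replicate 2, 390 (88.6%). The median shift between pooled and replicate summit was 10 bp in replicate 1 and 6 bp in replicate 2. Since members were chosen for the hexamer at the pooled summit, shifts this small largely fix those shares. The median rank of the members was 2801 in replicate 1 and 2728.5 in replicate 2, against 3977.5 and 3917 for all thresholded peaks.

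**Figure D3:**
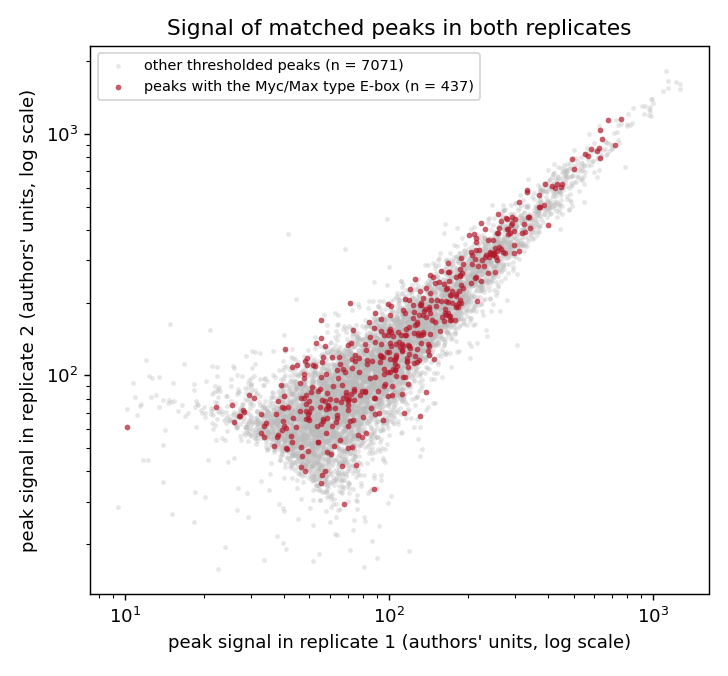
Peak signal in replicate 1 (x axis, log scale) and replicate 2 (y axis, log scale), each in the units of its own list, for the 437 members (red) and the other thresholded peaks (grey) matched within 100 bp in both whole lists. Members lie in the same band as the other peaks, and the band is widest at low signal.

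By annotation, members were spread like the other peaks. Summits of 225 members (50.7%, interval 45.9 to 55.4%) lay in promoters, meaning from 1000 bp before to 500 bp after any protein-coding transcript start, beside 53.0% of all peaks and 56.1% of the AP-4 type peaks. Intergenic sequence held 115 (25.9%, all peaks 24.7%) and introns 80 (18%, interval 14.6 to 21.9%). For introns, all peaks gave 15.7% and the AP-4 type peaks 10.4% (7.33 to 14.3%). The other members lay in non-coding genes (12), coding exons (8), 3′ UTRs (3) and a 5′ UTR (1).

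Relative to the nearest start, 312 members (70.3%) lay upstream, and the 250 bp just upstream held 95 of them (21.4%). The median distance was 784.5 bp, against 746 bp over all peaks, and 28 members (6.31%) lay more than 5000 bp away, against 4.73%. Within 200 bp of a tRNA, snoRNA or snRNA gene lay 8 members (1.80%) and 386 of all peaks (4.91%), a difference that was not tested. Divergent promoters, those shared by neighbouring genes read in opposite directions, made up 11.6% of the members' promoter summits and 14.4% of all.

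**Figure D4:**
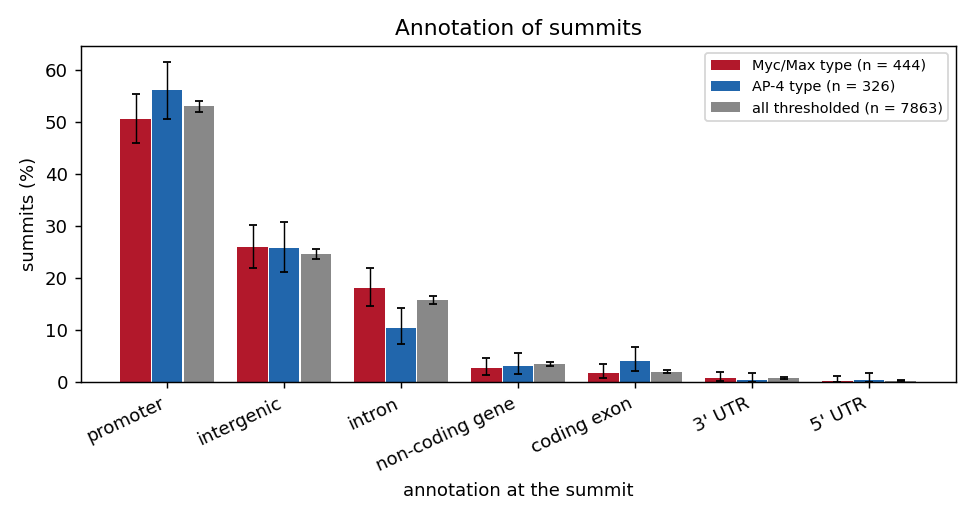
Share of peaks (y axis, percent, with 95% exact binomial intervals) in each annotation class (x axis) for members, AP-4 type peaks and all thresholded peaks. Promoters hold 50.7, 56.1 and 53.0%, and introns 18, 10.4 and 15.7%.

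By chromosome, there were 62 members on I, 68 on II, 64 on III, 67 on IV, 80 on V and 103 on X. The X held 23.2% of the members (interval 19.3 to 27.4%) and 23.8% of all peaks. Per Mb this was 1.41 times the autosomal density for members, 1.45 times for all peaks and 1.14 times for the AP-4 type peaks. The hexamer itself is rarer on X, with 139 CACGTG sites per Mb against 185 on the autosomes, a ratio of 0.753.

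The 20 strongest members had signals from 1909 down to 927 and were all found in both replicates, none below rank 274 in either list of its own. They fell in 7 promoters, 7 intergenic stretches, 4 introns and 2 non-coding genes, with 6 on V and 6 on X. The first, with a signal of 1909 in the pooled list (758 in replicate 1, 1157 in replicate 2), lay 2744 bp upstream of T04C4.3, which RefSeq names a subunit of translation initiation factor 3. The drap-1 promoter peak, 179 bp upstream of a gene for a histone-fold transcription factor, had 1669 (628 and 1041). These peaks were high in each replicate, which picking the strongest peaks of the pooled replicates largely fixes. In the top block of 1965 ranks, 99.1% of all peaks were found in both.

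The promoter of F21C10.10, a gene RefSeq names for a 3-hydroxyacyl-CoA dehydrogenase domain, as in fatty acid breakdown, had a peak of 1596 (643 and 951). Further strong promoter members stood at ipla-6 (1502), a patatin-like phospholipase gene, at T28B11.1 (1455), an F-box gene, at R107.5 (1217) and at mans-3 (1065), a mannosidase gene of glycan trimming. Strong intergenic or intronic members were nearest to Y17G7B.17 (1620), F22B7.9 (1454), R03E9.2 (1424), F09A5.3 (1362), W05H9.4 (1357), Y43F8B.2 (1074), penr-1 (1053) and the forkhead gene fkh-7 (1018). A member of signal 1280 nearest to letm-1, a mitochondrial ion exchanger gene, lay inside a non-coding gene. The gene aakg-1, for a gamma subunit of AMP-activated kinase, the cell's energy sensor, was nearest to 2 of the 20 (1014 and 927) and to 3 members in all, the closer of the 2 lying 5340 bp upstream of its start.

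After the 4 intronic members among the 20 strongest came one nearest to daf-14 (824), a Smad gene of the dauer TGF-beta pathway. The single 5′ UTR member was at C34C12.1 (872), which RefSeq names an autophagy-related protein 14. The strongest coding exon members were at F57B1.6 (647) and pqm-1 (449), a zinc-finger factor of stress and metabolism. The strongest 3′ UTR member was at endu-2 (306), an endoribonuclease gene. Members of these classes thus ranged from strong to weak, the weakest named coding exon peak, at C34G6.3, having 122.

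The mdl-1 locus (chrX:6742351-6743899, plus strand) held several members: 13 thresholded peaks had it as the nearest gene and 4 of them were members. The strongest, with a signal of 1821 (673 in replicate 1 and 1145 in replicate 2), lay 1660 bp downstream of the start inside the non-coding gene R03E9.10. The promoter member, 76 bp upstream, had 1023 (426 and 600). The others had 499 and 275, and the first 2 stood at ranks 29 and 170.

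Among the other CACGTG-binding family genes, mml-1 had 1 member among its 3 peaks, 1865 bp upstream, with a signal of 580 (251 and 336). The hlh-30 gene had 12 peaks and mxl-3 had 9, with no member; their best promoter signals were 755 and 193. No thresholded peak was nearest to mxl-1 or mxl-2. Among the genes of the list, mdl-1 thus had a member in the promoter window, mml-1 had one outside it, and hlh-30 and mxl-3 had peaks that did not meet the rule.

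In all, the members were nearest to 400 genes, of which 365 had 1 member, 28 had 2, 5 had 3 and 2 had 4; the last were mdl-1 and T28B11.1. Those with 3 were aakg-1, D2023.1, H18N23.2, M01H9.3 and Y43F8B.2. These genes also had many peaks without the hexamer, from 7 to 13 peaks each in total.

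A member lay in the promoter window of 251 protein-coding genes, which is 1.26% of the 19973 annotated and 5.91% of the 4247 genes (21.3%) with any thresholded summit there. For 171 of the 251, members were the only thresholded summits in the window. The AP-4 type peaks reached 215 genes, and 3 of these also had a member, beside 5.91% of the 4247 genes with any thresholded summit. The rule leaves the 15 peaks with both E-boxes out of both sets, which can only lower this overlap or keep it. The overlap was not tested. The counts below are read against 1.26% of all genes and 5.91% of bound genes.

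Of 72 lysosome genes, 42 had a thresholded summit in the promoter and 6 (8.33%) had a member. These were cpr-1, a gut cysteine protease (signal 458; 212 in replicate 1 and 252 in replicate 2), the lipases lipl-2 (370; 179 and 195) and lipl-5 (285; 128 and 163), the aspartyl protease asp-12 (301; 113 and 186), the ceramidase asah-1 (234; 112 and 128) and the glucosidase aagr-1 (151; 51.3 and 89.3). Most of the 6 were above the median of all peaks, and aagr-1 was below it. The replicates gave the same order for cpr-1 and lipl-2, which picking the strongest pair by pooled signal largely fixes. For lipl-5 and asp-12 the order differed between the replicates.

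Of 28 autophagy genes, 16 had a thresholded summit and 2 had a member, atg-13 (70.3 in replicate 1 and 78.6 in replicate 2), of the kinase complex that starts autophagy, and atg-3 (133), a conjugating enzyme. Of 45 lipid metabolism genes, 33 were bound and 2 had a member, the fatty acid binding protein gene lbp-5 (245) and the desaturase fat-4 (197; 82.8 and 111). Of 22 glycolysis genes, 15 were bound and 1 had a member, the aldolase aldo-2 (243; 93.5 and 153). Of 44 ribosome biogenesis genes, a classic Myc target class in mammals, 18 were bound and the only symbol with a member was imp-3 (250; 111 and 147). RefSeq names the worm gene imp-3 an intramembrane protease, so it is no ribosome biogenesis gene, and none of the others had a member. In the same way gar-1 of that list is named a muscarinic receptor and glb-12 of the lysosome list a globin, and neither had a member. Of 81 ribosomal protein genes, 64 were bound and 2 had a member, rpl-14 (346; 165 and 178) and rps-29 (224).

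The lists of other bHLH genes (35 genes, 6 bound), TOR and insulin signalling (20, 9), translation and tRNA synthetases (62, 30), nucleotide and one-carbon metabolism (22, 13), cell cycle (31, 16), respiratory chain (39, 24), stress and chaperones (29, 20) and microRNA and heterochronic genes (9, 6) had no gene with a member. No list was tested against the background of 1.26%. The lysosome list had the highest count of members among the 15, and only the ribosomal protein list, with 81 genes, was larger. Of its genes, 58.3% were bound, against 21.3% of all genes. Of its bound genes, 14.3% had a member, against 5.91% over all bound genes. The same share was 25% for the CACGTG-binding family genes (mdl-1 alone), 12.5% for autophagy and 6.06% for lipid genes. Peaks with only CAGCTG lay in promoters of 2 lysosome, 4 autophagy and 1 of the lipid genes.

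The bases that flank the hexamer were not used by the rule and varied among members. The genome holds 17729 CACGTG sites, of which 483 (2.72%, interval 2.49 to 2.97%) lay within 50 bp of a thresholded summit; for CAGCTG it was 346 of 20487 (1.69%, 1.52 to 1.87%). By flank, read in the orientation that comes first in the alphabet, the share was 5.29% for TCACGTGA (67 of 1267 sites, 4.12 to 6.67%), 4.94% for GCACGTGA, 4.80% for GCACGTGC and 4.02% for ACACGTGA. It was 1.51% for ACACGTGG and 1.13% for CCACGTGG (34 of 3000 sites, 0.786 to 1.58%). In a grouping chosen after these values were seen, sites with an A after the hexamer on both strands (TCACGTGA) were at a summit in 5.29% of cases, on 1 strand in 3.63% (3.16 to 4.14%) and on neither in 1.93% (1.67 to 2.2%).

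Part of the genome's sites lie in coding sequence, where few summits are, and flanks differ in this. Outside coding sequence lay 76.5% of TCACGTGA sites and 47.1% of CCACGTGG sites. With coding sites left out, 461 of 10933 CACGTG sites (4.22%) were at summits, and the shares were 8.66% for GCACGTGC, 7.95% for GCACGTGA, 6.40% for TCACGTGA, 5.59% for ACACGTGA, 2.45% for ACACGTGG and 2.33% for CCACGTGG. The order of the first 4 thus moved, and the flanks with a G after the hexamer stayed lowest of those named here. GCACGTGC, with no A after the hexamer on either strand, then came above TCACGTGA, with an A on both. GCACGTGC had 231 sites outside coding sequence. The other flanks with no A after the hexamer on either strand were at 2.33 to 5.22% there. CCACGTGA, with an A on 1 strand, was at 3.88%. The grouping by A was not repeated with coding sites left out.

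Signal also differed by flank, each member being counted by the copy nearest its summit. TCACGTGA was the octamer at 64 members (14.4%, interval 11.3 to 18%), with a median signal of 199, and ACACGTGA at 75, with 262. CCACGTGG, at 31 members, had a median of 303, GCACGTGC, at 18, had 289, and ACACGTGT, at 24, had 170. Median signal thus had a different order from the share of sites at summits, though GCACGTGC was high in both; these differences were not tested. The strongest TCACGTGA members were nearest to F09A5.3 (1362), penr-1 (1053), E01G4.3 (744), the ferritin gene ftn-2 (730) and the forkhead gene fkh-9 (699).

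**Figure D5:**
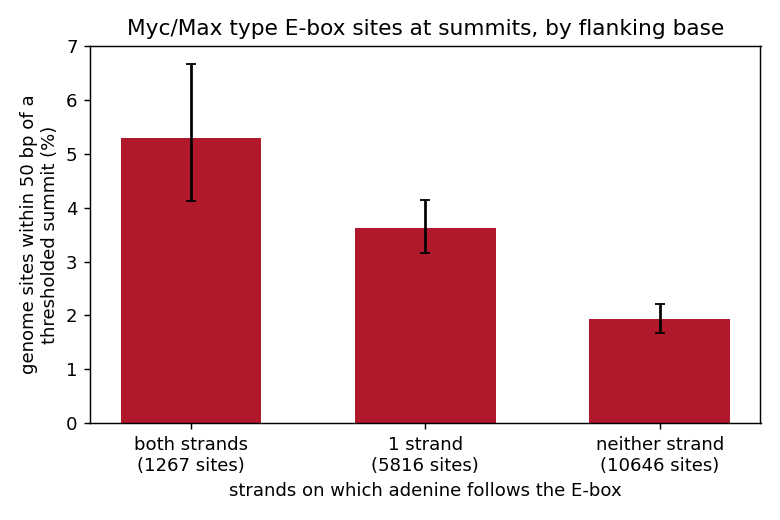
Share of the genome's Myc/Max type E-boxes within 50 bp of a thresholded summit (y axis, percent, with 95% exact binomial intervals), by the number of strands on which adenine follows the hexamer (x axis). The bars stand at 5.29% for both strands (1267 sites), 3.63% for 1 strand (5816 sites) and 1.93% for neither (10646 sites). Sites in coding sequence are included, and flanks differ in how many of their sites are coding. Outside coding sequence the highest flank was GCACGTGC (8.66% of 231 sites), which is in the neither group. The other flanks of that group were at 2.33 to 5.22% there, and TCACGTGA was at 6.40%.

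More than 1 copy of CACGTG was present in 23 members, 22 with 2 copies and tpra-1 with 3. The strongest of these were nearest to hpd-1 (909), a tyrosine breakdown enzyme, lpin-1 (876), the lipin of fat synthesis, C49F8.15 (722), tpra-1 (718), D2023.1 (647), CC8.2 (640), the alcohol dehydrogenase adh-1 (591), the NAD kinase nadk-1 (515), H18N23.2 (459) and spsb-1 (394). Over all 23, copies were as close as 7 bp, counted from start to start, at a weak promoter member nearest to M176.16. They were as far as 83 bp at lpin-1.

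Other sequences in the 101 bp window, searched on both strands, were mostly as frequent at members as at all peaks. Any of the 8 remaining E-box hexamers was present at 39.2% of members and 37.9% of all peaks. The GATA-type hexamer CTTATC was at 17.1% and 17%, and TGATAA at 28.6% (interval 24.4 to 33.1%) and 24.1%. Runs of GAGAGA were at 19.4% (15.8 to 23.4%) and 24.3%, and CGTCTC at 10.6% (7.88 to 13.8%) and 13.9%. A match here is a run of letters only and was not tested as a site.

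Neither hlh-11, the gene of the tagged protein, nor unc-119, which the strain's background allele affects, had a member. The hlh-11 gene has 1 CACGTG site within 2000 bp and no thresholded peak there. The unc-119 gene had 1 peak, not a member. Within 2000 bp of atgl-1, which encodes a fat-storage lipase, lay 4 peaks, none of them a member.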

How the data were processed

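HLH-11 ChIP-seq peaks from 2 biological replicates of 1 group were analysed. The authors made 4 lists: 1 per replicate, 1 of the pooled replicates, and 1 thresholded by the irreproducible discovery rate, per the accompanying notes. That rate compares how peaks rank in the replicates. The 7863 thresholded peaks were exactly those with the highest signal in the pooled list. The list thus equals a cut on pooled signal, and being in it does not show that a peak ranked alike in both replicates. By the matching rule of the Results, 144 of its peaks were found in neither. Each deposited peak has a signal value, used to rank peaks within a list, a −log10 q value, which the authors' files give with a ceiling and which was not used, and a summit offset. Build ce11 is per the labels. The sources used here give no aligner, caller or settings, depth is unknown, and the control was not analysed here.

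Sequence came from the RefSeq genome and genes from Ensembl release 115, both WBcel235, whose chromosomes match ce11. Python 3.11.15, NumPy 2.4.6 and SciPy 1.17.1 were used. Both strands were searched in the 101 bp around each summit. Classes were assigned in turn, promoters first, then coding exons, both kinds of UTR (5′ before 3′), introns, non-coding genes and intergenic sequence. Members, gene lists and tests were chosen with earlier results of these data known. Named were the nearest genes of the 20 strongest members, up to 10 with several copies, up to 4 genes per list (further members of the lysosome list were added), the strongest of each smaller class, of TCACGTGA and of peaks with both E-boxes, peaks at the window limit, and hlh-11, unc-119 and atgl-1; other names were chosen after their values were seen. On simulated peaks, 5000 of 5000 were classed as planted. Alternatives are given in the closing section.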

Additional observations from a re-analysis of the deposited data

How the results depend on the processing

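Of 60 alternative values over 7 results, 48 moved by less than their interval or stayed within 1.5 times the count. The share of peaks that met the rule was 2.94% with 25 bp to either side of the summit, 8.90% with 100 bp and 7.35% in the strongest 3931 peaks. The number of genes with a member in the promoter was 129, 392 and 163 under the same settings, and the TCACGTGA share was 10.8% with 25 bp. The promoter share was 35.6% with 500 bp upstream and 200 bp downstream, and 63.1% with 2000 bp upstream. The share found in both replicates was 99.7% in the strongest 3931 peaks, 77.0% with a match within 50 bp and 98.4% with the replicates' whole lists. By definition, a wider promoter, a looser match or a longer replicate list can only keep or raise the share it sets. The cause of the other shifts was not tested. With 1 replicate's own strongest 7863 peaks, the share of peaks that met the rule was 5.43 to 5.67%, the share in the strongest 3931 was 65.6 to 65.9%, the promoter share 49.6 to 50.9%, the X share 22.4 to 24.6%, the number of genes 230 to 248 and the TCACGTGA share 13.7 to 14.1%. No paired analysis was possible because the series holds 1 group only. Read depth is unknown, so counting error of reads could not be given.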

Other observations

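The 15 peaks with both CACGTG and CAGCTG within 50 bp of the summit, which are not members, had a median signal of 616 and a median rank of 553. The strongest were nearest to dpsm-1 (1165), Y43F8B.2 (1079), T27E4.7 (819), Y110A2AR.1 (756) and Y48A6B.7 (746). Others were nearest to atg-9 (635), a membrane protein of autophagy, and nuc-1 (616), a nuclease that degrades DNA in the lysosome. These 2 were picked after their values were seen, and the set is too small to compare with the members.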
